A study of Mus musculus with 13 samples.

Results

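The genes considered here are the Gadd45 family and a set of growth arrest and apoptosis genes under the control of p53, namely Gadd45a, Gadd45b, Gadd45g, Cdkn1a, Btg2, Ccng1, Mdm2, Trp53inp1, Bax and Phlda3. They were taken by their symbols from the deposited liver table, in which 9 of the 10 are listed among 11779 genes in all. Phlda3, which encodes an inhibitor of Akt signalling, is not among the listed genes, so no level is given for it, and only its promoter window was examined. The set was chosen by its function and with the authors' own comparison of the livers known, and no value of that comparison is given here. What is described is the level of each gene in the liver, its place among the other listed genes and the sequence features of the members.

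RNA was sequenced from whole pieces of liver of Balb/c mice on day 5 after an injection into the tail vein. Of the 6 liver libraries, 3 came from the Liver Luc ASO group, which received a GalNAc-conjugated antisense oligonucleotide (ASO) against firefly luciferase, a gene that mice do not have, and whose dose is not given in the sources used here. The other 3 came from the Liver LL35 ASO group, which received 5 GalNAc-conjugated ASOs against the long non-coding RNA LL35, at 150 mg/kg, a dose that the labels state for each ASO and the methods for the whole mix. The number of ASOs is as the labels give it, while the study's list of conjugates for mice names fewer against LL35. GalNAc is a sugar that hepatocytes take up through a surface receptor. Both groups carried a conjugate of this kind, and no untreated liver was among the sequenced samples. The age and sex of the mice are not given in the sources used here. The 7 libraries of AML12 cells, a mouse hepatocyte line, were not analysed here.

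For each gene, the deposited table holds 1 mean of normalized read counts over the compared liver libraries, made by the authors, and no value for a single mouse or for either group. All levels below are therefore the authors' means over both groups, without a standard deviation, and no difference between Liver LL35 ASO and Liver Luc ASO was tested. The depth of each library is unknown. The means of all listed genes sum to 11299288 normalized counts. The lowest mean normalized count in the table is 15.6, the median is 235, and the upper quartile is 625. Genes below the lowest mean may have been left out, so a gene that is not listed may still be expressed. Medians and percentiles are places among the listed genes only. Among the defining markers of hepatocytes, all 8 are listed, and albumin (Alb) alone makes up 10.8% of the sum, so the labelled tissue and its markers match. The lowest hepatocyte marker was Serpina1a with 10070 normalized counts. Markers of macrophages (6 of 6, from Adgre1 with 194 to Clec4f with 1954), endothelial cells (5 of 5, from Lyve1 with 121 to Stab2 with 2171) and stellate cells (5 of 5, from Des with 51.8 to Reln with 1823) are listed too, with median levels of 626, 712 and 366 normalized counts. Of 5 cholangiocyte markers 2 are listed (Sox9 with 41.1 and Spp1 with 151), of 5 T and NK cell markers 1 (Cd3e with 18.6), of 4 B cell markers 0, of 4 neutrophil markers 2 (S100a9 with 18.8 and S100a8 with 23.0), and of 4 erythroid markers 3 (from Hbb-bt with 42.8 to Hba-a1 with 316). The levels thus come from a mixture of cell types, in which fewer cells of a type and less RNA per cell cannot be told apart.

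The transcription factor p53 is held at a low level in unstressed cells because Mdm2, a ubiquitin ligase whose gene p53 itself activates, marks it for degradation. After DNA damage and other stresses p53 accumulates and activates genes that halt the cell cycle, repair DNA or start apoptosis. The Gadd45 proteins are small stress sensors that bind kinases of the p38 and JNK pathways, the replication clamp PCNA and the mitotic kinase Cdk1. Gadd45a is the member classically induced by p53, whereas Gadd45b and Gadd45g are known mainly as early response genes to cytokines and growth signals, and in the liver Gadd45b is induced during regeneration.

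p53 binds DNA as a tetramer at 2 half-sites of 10 bases, each with a C and a G at fixed places in its core. The pattern searched for was RRRCWWGYYY, in which R is A or G, W is A or T, and Y is C or T. Promoter windows of 300 bases, 250 before and 50 after the start site, were taken from RefSeq on GRCm38.p6 for 9 members, and Trp53inp1 had no entry. The following 30-base stretches are written 5′ to 3′ along the strand of the gene. Each holds a half-site without a mismatch from the window of a member. They are shown because they are the sequence feature that several of the members share. Capitals mark the half-site, or both half-sites where 2 stand side by side, as in Ccng1 and Cdkn1a. In these pairs only 1 half-site is without a mismatch, the second as written in Ccng1 and the first in Cdkn1a. A further half-site without a mismatch in Cdkn1a, 73 bases before the upstream of its 2 start sites, is not shown. The stretch of Ccng1 lies at chr11:40755457-40755486 (minus strand), that of Cdkn1a at chr17:29090923-29090952 (plus), that of Mdm2 at chr10:117710925-117710954 (minus), that of Bax at chr7:45467080-45467109 (minus) and that of Gadd45a at chr6:67037428-67037457 (minus).
Ccng1: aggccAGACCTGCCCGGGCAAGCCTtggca
Cdkn1a: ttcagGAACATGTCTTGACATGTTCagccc
Mdm2: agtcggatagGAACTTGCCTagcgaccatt
Bax: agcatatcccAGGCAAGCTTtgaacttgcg
Gadd45a: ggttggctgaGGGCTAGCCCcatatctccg

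A half-site without a mismatch was found in the windows of 5 of the 8 listed members with a window, which is 62.5%. The same motif occurs in the windows of 774 of 9335 listed genes, or 8.29%. Apart from the Gadd45 family, the members were picked as genes under the control of p53. The gap between these shares therefore cannot be read as a result about these livers, and it was not tested. The half-site pattern reads the same on both strands, although the bases of a given match need not. A match on either strand was therefore counted once. Cdkn1a held 2 such half-sites, 73 and 51 bases before the upstream of its 2 start sites. With 1 mismatch allowed outside the core C and G, all 8 members held a half-site, but so did 53.9% of the listed genes, so this looser form says little of the members. No half-site in either form was found in the window of Phlda3. A match describes letters in this window only, and binding of p53 was not measured.

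A pair of half-sites side by side, at least 1 of them without a mismatch, was rarer. It was found in 6 of 9335 listed genes, or 0.0643%, and 2 of these were the members Ccng1 and Cdkn1a. The other 4 were Rps27l, a ribosomal protein gene paralog that is itself a known p53 target, Mthfd1, a folate enzyme gene, Calhm2 and Gm29797. This form of the search was chosen after the sequences had been seen. In Ccng1 the pair begins 195 bases before the start site, and the half-site without a mismatch is the one nearer to the start. In Cdkn1a the pair begins 51 bases before the upstream of 2 start sites, which lie 2790 bases apart, and the window of the downstream start held none.

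**Figure D1:**
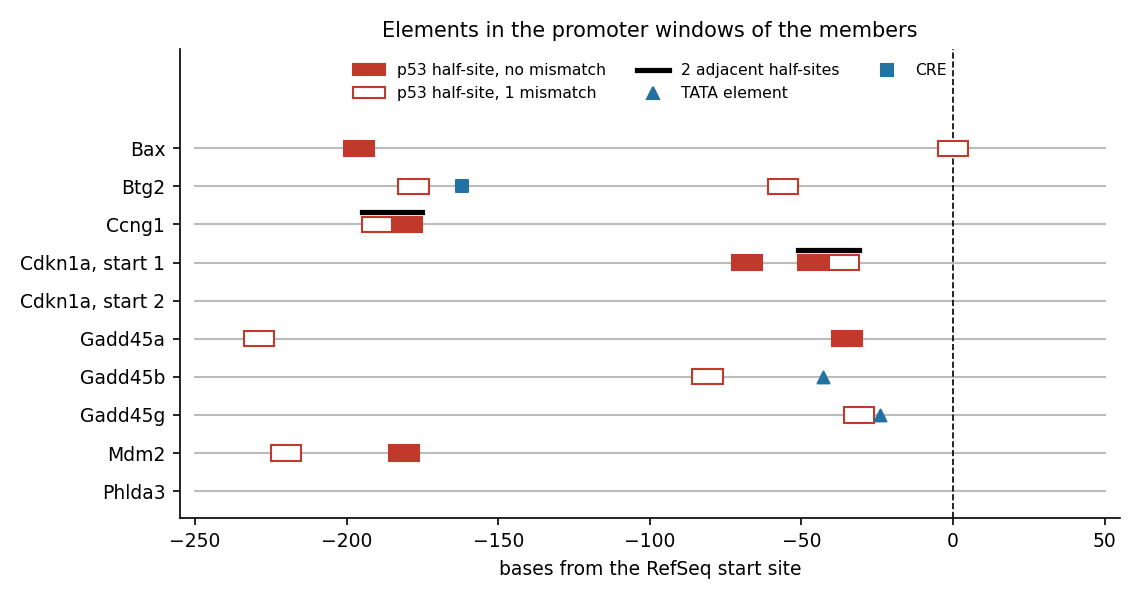
Positions of p53 half-sites and of 2 other sequence elements in the 300-base promoter windows of the members, in bases from the RefSeq start site (dashed line). Filled boxes are half-sites without a mismatch, open boxes half-sites with 1 mismatch, black bars 2 adjacent half-sites, triangles TATA elements and the square a cyclic AMP response element (CRE). The adjacent pairs are in Ccng1 and in the upstream Cdkn1a window, and the TATA elements are in Gadd45b and Gadd45g.

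Gadd45b and Gadd45g held no half-site without a mismatch, but each held the element TATAAA, which was searched on both strands and occurs in the windows of 9.35% of the listed genes. It lies 27 bases before the start site in Gadd45g and 46 bases before it in Gadd45b, and in no window of another member. In Btg2, the element TGACGTCA, a full binding site of the CREB and ATF factors, begins 166 bases before the start site, and 3.49% of the listed genes hold it in their window. These elements were also looked for after the sequences had been seen. The stretches are shown since they set these 3 genes apart from the other members with a window, with the element in capitals. They lie at chr13:51846636-51846665 (plus strand) for Gadd45g, chr10:80930033-80930062 (plus) for Gadd45b and chr1:134079303-134079332 (minus) for Btg2.
Gadd45g: gccgagcctgtcTATAAAagggctctcccg
Gadd45b: cccgggaagtcaTATAAAccgctcgcagcg
Btg2: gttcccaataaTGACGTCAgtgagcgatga

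The base composition of these windows also differed among the members. The share of G and C ran from 54.7% in the upstream Cdkn1a window to 72.0% in Btg2, against a median of 60.7% over the listed genes. The ratio of observed to expected CpG dinucleotides, which is high in CpG islands, was 1.12 for Mdm2, above or equal to that of 96.8% of the listed genes. In the upstream Cdkn1a window it was 0.0892, a value that only 2.47% of the listed genes reach or fall below, while the downstream Cdkn1a window had 0.786.

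In the liver, the members covered a 30.9-fold range of mean normalized count. Trp53inp1, which encodes a stress protein that acts with p53 and in autophagy, had the highest level, with 2548 normalized counts, at or above 94.9% of the listed genes. Btg2, an anti-proliferative gene whose protein recruits the deadenylation machinery to mRNAs, followed with 755 normalized counts. Gadd45a had the lowest level, with 82.5 normalized counts, and Bax, the pro-apoptotic pore former of the outer mitochondrial membrane, had 85.7. Of the 9 listed members 6 were above the median of all listed genes, and the median member stood at the 62.6th percentile. All 9 together made up 0.0465% of the summed level.

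Longer genes yield more reads at the same number of transcripts, so levels were compared between genes per kb of annotated exon. On this scale the order from high to low was Trp53inp1, Gadd45g, Btg2, Gadd45b, Ccng1, Mdm2, Cdkn1a, Bax and Gadd45a. Trp53inp1 had 394 normalized counts per kb and Gadd45a 46.7, a range of 8.42-fold, against a median of 51.5 per kb over the listed genes. Of the 9 members, 8 were above that median, and only Gadd45a was below it. With no value for single mice, neighbours in this order cannot be separated by their spread. The order also depends on the length used. With the coding length as the divisor, 3 of the 9 members kept their rank, and Bax rather than Gadd45a came last.

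**Figure D2:**
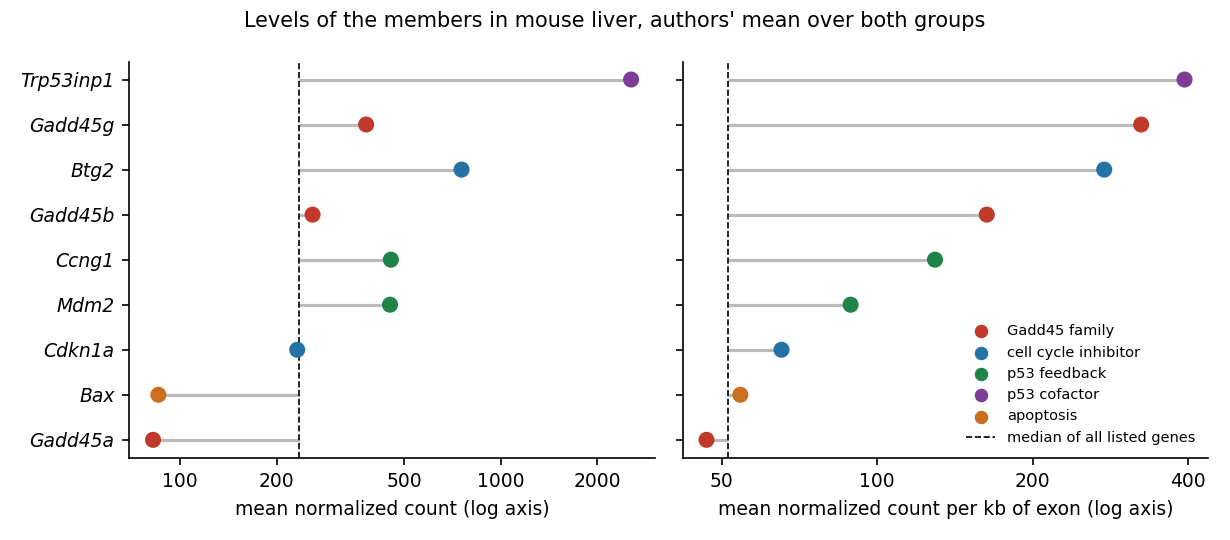
Level of each of the 9 listed members as the authors' mean over both liver groups, as mean normalized count (left) and per kb of exon (right), both on log axes, coloured by role, with the median of all listed genes as a dashed line. Division by length lifts Gadd45g and Gadd45b in the order and leaves Trp53inp1 highest and Gadd45a lowest; no error is shown, as each point is a single mean.

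**Figure D3:**
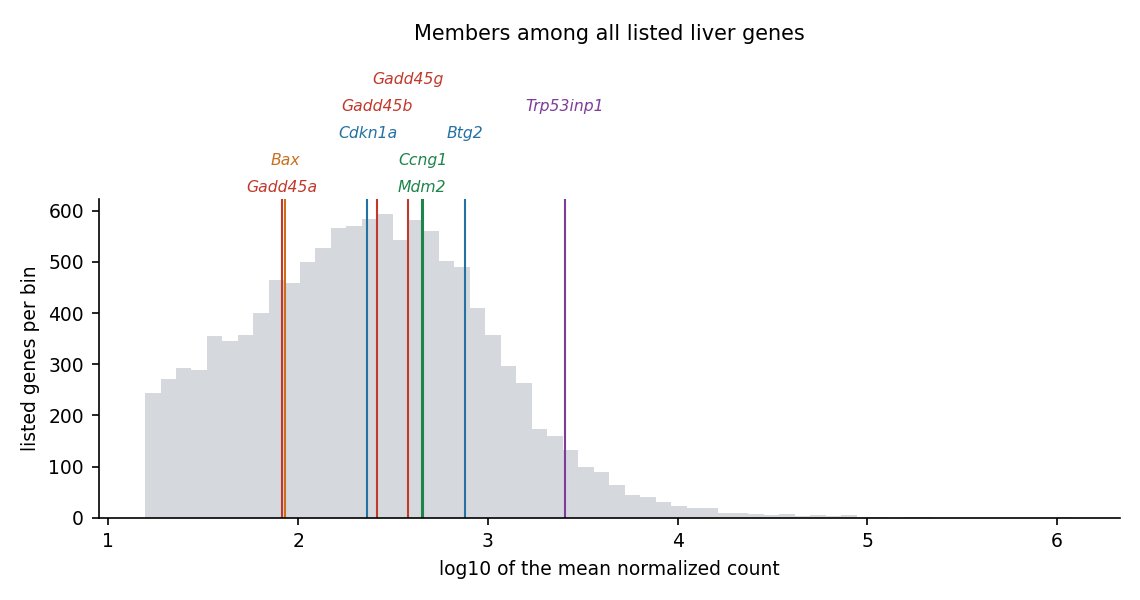
Histogram of the log10 mean normalized count of all 11779 listed genes, with a vertical line for each member. Gadd45a and Bax lie near the lower quartile, Cdkn1a, Gadd45b, Gadd45g, Mdm2 and Ccng1 lie near the middle, and Btg2 and Trp53inp1 lie above the upper quartile.

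Within the Gadd45 family, Gadd45g was the most abundant gene. It had 381 normalized counts, Gadd45b had 259 and Gadd45a 82.5. Per kb of exon, the levels were 324 for Gadd45g, 163 for Gadd45b and 46.7 for Gadd45a. Gadd45g was thus 1.99-fold above Gadd45b and 6.94-fold above Gadd45a per kb of exon, and Gadd45b was 3.49-fold above Gadd45a. The order within the family was the same without division by length, per kb of coding sequence and per kb of 1 transcript. The size of the gap was not, as Gadd45g was 4.61-fold above Gadd45a without division and 4.79-fold above it per kb of coding sequence. All these orders use the same mean over both groups, so they say nothing of the spread between mice. In the percentiles of the level per kb, Gadd45g stood at 89.6, Gadd45b at 80.0 and Gadd45a at 47.1.

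The 3 Gadd45 genes are alike in build. Each has a coding transcript of 4 exons, with a coding length of 495 bases in Gadd45a, 480 in Gadd45b and 477 in Gadd45g. Only 7.77% of the listed genes with a coding model have a coding length of at most 500 bases. The short coding length is not particular to the family, since Cdkn1a has 477 coding bases and Btg2 474, and the transcript of Trp53inp1 has 4 exons too. Their coding sequences were 61.7% identical between Gadd45a and Gadd45b, 64.2% between Gadd45a and Gadd45g and 66.0% between Gadd45b and Gadd45g, over 467 to 480 aligned bases. The level of Gadd45a carries an added uncertainty, because 337 of its exon bases are shared with the antisense gene E230016M11Rik, which is listed with 20.6 normalized counts. The library kit keeps the strand of the RNA, but whether strand was used in counting is not given in the sources used here, and without it the reads of the pair cannot be told apart.

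The partners of the Gadd45 proteins were listed in 5 of 7 cases, and the mitotic genes Cdk1 and Ccnb1 were not among the listed genes. The median of the 5 was 316 normalized counts, or 71.4 per kb. Mapk14, the p38α kinase, was highest with 1283 normalized counts, and Pcna lowest with 171. Map3k4, the kinase that Gadd45 proteins activate, had 316 normalized counts, and Map2k7, a JNK pathway kinase that Gadd45b binds, had 297. Gadd45g, at 324 per kb, was above each of these 5 partners per kb, the highest of which was Mapk14 with 293, but not without division by length.

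Among the genes that arrest the cell cycle, Btg2 was above Cdkn1a under each length divisor. Cdkn1a, which encodes the CDK inhibitor p21, had 232 normalized counts and 65.3 per kb, and Btg2 had 275 per kb, a ratio of 4.21. The ratio was 3.25 without division by length, 3.27 per kb of coding sequence and 2.47 per kb of the coding transcript. The exons of Cdkn1a share 273 bases with AC167363.2, an unconfirmed transcript on the opposite strand that is not among the listed genes. Of 6 other CDK inhibitor genes 4 were listed, with a median of 34.8 normalized counts, against 235 over all listed genes. Cdkn1b, which encodes p27, was the highest of these with 353 normalized counts and 77.6 per kb, and was thus above Cdkn1a on both scales. Cdkn2d was the lowest with 18.7. In the Btg and Tob family, Tob1, at 523 per kb, was above Btg2, while Tob2 had 146 and Btg1 103 per kb.

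The feedback genes of p53 were close to each other in mean normalized count. Ccng1, which encodes cyclin G1, a partner of the phosphatase PP2A that acts on Mdm2, had 455 normalized counts and Mdm2 had 452, a gap of 0.631%. Per kb of exon Ccng1 had 129 and Mdm2 88.9, as Mdm2 has the longer exons, 5083 bases against 3512. This gap too depends on the divisor, since per kb of 1 transcript Mdm2 was above Ccng1. Trp53, the p53 gene itself, had 255 normalized counts and 63.0 per kb, close to Cdkn1a on both scales. Among p53 and its regulators 7 of 8 genes were listed, with a median of 28.9 per kb. The highest was Usp7, which encodes a deubiquitinase of Mdm2 and p53, with 1175 normalized counts, and the lowest was Chek1, a checkpoint kinase gene, with 16.9. Mdm4, the relative of Mdm2 that represses p53 activity, had 1082 normalized counts but 73.1 per kb, below Mdm2.

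Bax, at 54.4 per kb, was near the median of all listed genes. Of the other Bcl2 family genes, all 8 were listed, with a median of 36.4 per kb. Mcl1, an anti-apoptotic gene, was the highest with 1296 normalized counts and 379 per kb, and Bok was the lowest with 30.7 normalized counts. Bak1, which encodes the second effector of the same pore, had 46.0 per kb. The exons of Bax share 192 bases with Gm45808, a gene annotated on the same strand and not among the listed genes. Reads in this stretch cannot be assigned to either.

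Paralogs of the remaining members spanned a wide range. Trp53inp2 had 3855 normalized counts and 733 per kb, above Trp53inp1 on both scales. Ccni, a relative of Ccng1, had 437 per kb, and Ccng2 had 25.0. Phlda1 had 209 per kb, while Phlda2 was not among the listed genes.

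Of 26 other p53 target genes, 24 were listed. Their median was 172 normalized counts and 43.0 per kb, against 381 and 129 for the 9 members and 235 and 51.5 for all listed genes. Per kb, 8 of the 24 were above the median of all listed genes, compared with 8 of the 9 members. Without division by length, the counts were 9 of the 24 and 6 of the 9. These counts rest on how the members were chosen and were not tested. Ephx1, the microsomal epoxide hydrolase gene, was the highest with 2969 normalized counts and 1522 per kb. It was followed in mean normalized count by Ei24 with 1767, Cdip1 with 1344, Plk3 with 1080 and Perp with 944. The lowest was Pmaip1, which encodes the pro-apoptotic protein Noxa, with 16.3. Rps27l, which holds the adjacent half-sites, had 713 per kb.

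Few genes of proliferating cells were listed, 4 of 12. Of these, Ccnb2 had 20.4 normalized counts and the proliferation marker Mki67 had 23.5. Ccnd1, which encodes the early G1 cyclin D1, stood apart with 2305 normalized counts. Per kb, Mki67 had 2.34, Mcm2 4.34, Ccnb2 13.3 and Ccnd1 490. In the same livers Cdkn1a had 65.3 per kb and Gadd45a 46.7 per kb, above Mki67, Mcm2 and Ccnb2 but below Ccnd1.

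**Figure D4:**
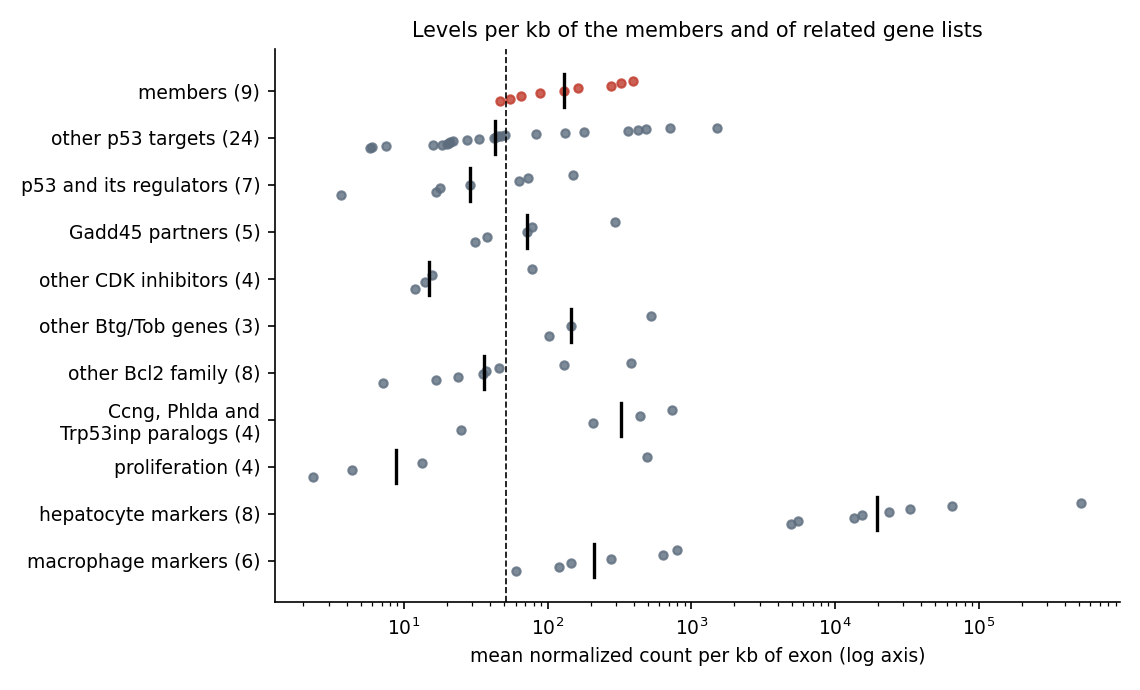
Mean normalized count per kb of exon, on a log axis, for the listed genes of each list, with the number listed in brackets, each point a gene, the short bar the median of the list and the dashed line the median of all listed genes. The members lie between 46.7 and 394 per kb, the other p53 targets range more widely, and hepatocyte markers lie above all other lists shown.

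The members also differed in the untranslated part of their transcripts. The 3′ UTR was 4420 bases long in Trp53inp1, 2316 in Ccng1 and 2199 in Btg2, against a median of 979 over the listed genes. It was 165 bases in Bax and 489 to 563 bases in the Gadd45 genes. The pentamer ATTTA, the core of AU-rich elements that are known to shorten the life of many early response mRNAs, was counted on the sense strand. Trp53inp1, Ccng1 and Mdm2 each held 8, a number that 9.91% of the listed genes reach. Per kb of 3′ UTR, Mdm2 had 5.99, at or above 96.1% of the listed genes, and Gadd45a had 3.55 from 2 pentamers, against a median of 1.35. Gadd45b, Gadd45g and Bax held none, as do 30.6% of the listed genes, so the Gadd45 genes were not alike in this feature. The 8 pentamers of Trp53inp1 lie in the longest 3′ UTR of the members. Per kb of 3′ UTR they come to 1.81, at or above 60.2% of the listed genes. Of the 2 members highest in level per kb, Trp53inp1 thus held pentamers and Gadd45g none. Whether pentamers go with the level was not tested.

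**Figure D5:**
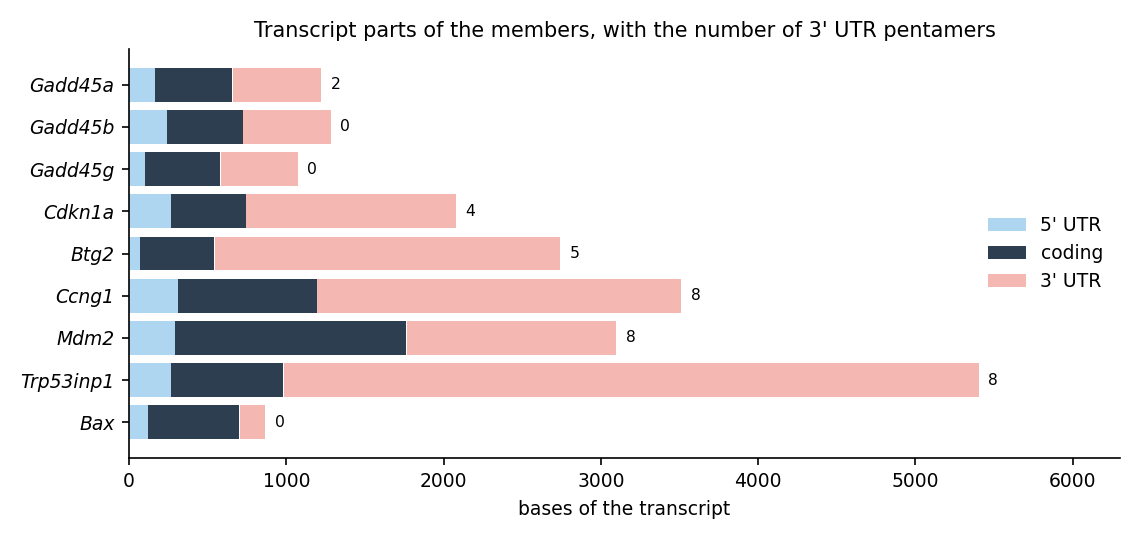
Lengths in bases of the 5′ UTR, coding sequence and 3′ UTR in 1 coding transcript of each listed member, with the number of ATTTA pentamers in the 3′ UTR at the end of each bar. The Gadd45 transcripts are short, with 2, 0 and 0 pentamers, and Trp53inp1 has the longest 3′ UTR.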

How the data were processed

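Liver RNA from 6 libraries was made with rRNA depletion and a directional kit. The authors aligned reads with STAR 2.5.3a and counted them on Ensembl genes, and normalized them by the RLE method of DESeq2. The genome build and annotation release are not given in the sources used here. The authors' deposited table holds, as a signal, the mean normalized count of each gene over the compared liver libraries. Its other columns hold the authors' own comparison of Liver Luc ASO and Liver LL35 ASO (log2 fold change, standard error, Wald statistic and p-values), and none of these was used. Without values for single mice, no test was possible and the depth and its precision are unknown.

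Levels were divided by the union of exons in GENCODE M21 (GRCm38), to which 11754 of 11779 genes were matched by Ensembl identifier. Coding length and 3′ UTR came from 1 complete coding transcript a gene, the one with the longest coding sequence (11377 genes). Percentiles are the percentage of genes at or below a value. ATTTA was counted per kb in 3′ UTRs of at least 100 bases (10709 genes). Promoter windows of RefSeq (GRCm38.p6) were matched by symbol for 9335 listed genes, and a gene held a motif if any of its windows did. Coding sequences were aligned globally in Biopython 1.88. The motif search was tested on simulated sequences. Python 3.11.15, numpy 2.4.6, pandas 2.3.3, scipy 1.17.1 and matplotlib 3.10.9 were used.

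All members were named, with the highest and lowest gene of each list, the 5 highest of the other p53 targets, and paralogs of the members. The other genes with adjacent half-sites, the gene overlaps and the further p53 pathway genes were named after their values were seen. The members and lists were chosen with earlier results of these data known. Alternatives changed the length divisor, the genes ranked and the motif.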

Additional observations from a re-analysis of the deposited data

How the results depend on the processing

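The order of the levels depended on the divisor. Against the order per kb of exon for 9 members, 4 kept their rank without division by length, 3 per kb of coding length and 7 per kb of 1 transcript, the last an alternative chosen after seeing the data. Trp53inp1 was highest under each of these divisors. The median percentile of the members, 62.6 over all listed genes, was 55.5 among genes with at least 50 normalized counts, 61.7 among protein-coding genes, 75.2 per kb of exon and 67.1 without the 3 Gadd45 genes. The number of members with a p53 half-site, 5 of 8, was 8 with 1 mismatch allowed, where 53.9% of listed genes hold one, and 2 for adjacent half-sites. With all promoters of the RefSeq table as the background, 9.55% of genes hold a half-site without a mismatch. The identity of the Gadd45 coding sequences was 61.7% to 64.8% over the shorter sequence. The planned protein alignment was not run, since no protein sequences were used here. No paired analysis was possible because the table holds 1 mean over both groups, and for the same reason no mouse could be left out.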
